A study of Mus musculus with 24 samples.

Results

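Quadriceps muscle of MRL/MpJ (MRL) and C57BL/6 (B6) mice was told apart, in every one of 24 RNA sequencing libraries, by 60 of the 14159 genes measured. The genes were chosen on the deposited log2 CPM (counts scaled to sequencing depth, on a log2 scale): the lowest of the 12 MRL libraries had to lie above the highest of the 12 B6 libraries, or the reverse, by more than 0.3, a distance called the gap here. This rule was met by 77 genes higher in MRL (0.544% of all genes) and 68 higher in B6 (0.48%), and 85 of these were left out by their symbols, among them genes of the major histocompatibility complex, ribosomal proteins, predicted genes, pseudogenes and interferon-induced genes. The symbol alone decided, so the pseudogenes Vcp-rs and Rbpsuh-rs3 and the interferon-inducible Pydc3 were kept under theirs. The 60 that remained were 22 genes higher in MRL and 38 higher in B6. Because the strain difference in every library chose them, it is described below and not tested.

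Both strains were female mice that were 6 to 8 weeks old, and each contributed 4 groups of 3 libraries. One group was uninjured, and in the others a piece of the quadriceps was removed to give a volumetric muscle loss (VML) injury, which was treated with saline as the control injury, with extracellular matrix (ECM) from porcine small intestine, or with polyethylene (PE) particles. Injured muscle was collected 21 days post-injury, and the whole quadriceps was used, so muscle fibres, infiltrating cells and implant were in 1 sample. The study's methods describe the samples as independent, and the labels number the libraries without naming mice.

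B6 is the strain of the mouse reference genome, and MRL is an inbred strain known for closing some wounds with little scar. Inbred strains differ at many fixed places in the genome, and such places can move a gene's level in cis in every tissue and treatment, delete or duplicate a member of a gene family, or place a copied, intronless version of a transcript elsewhere in the genome. RNA reads are assigned to genes by matching short stretches to reference transcripts, here 31 bases long. Where copies of a gene differ by few bases, those few bases decide which copy the reads are counted for.

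All libraries carried the markers of skeletal muscle. All 10 muscle fibre markers, such as Acta1 and Ckm, were in the matrix, and for 0 of them did the strains separate. Summed over the 10 markers, the level ranged from 44891 to 165233 CPM in B6 and from 27339 to 172275 CPM in MRL. The PE-treated MRL library of replicate 2 stood apart, with Pearson correlations across genes of 0.812 and 0.827 to the other libraries of its group, against 0.904 to 0.976 for the other 22 pairs within groups. It set the edge of the gap most often, as the highest library of the lower strain for 16 of the 60 genes and the lowest of the higher strain for 11. Leaving out a library can only widen a gap, and without this one 26 more genes passed the rule.

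The sequences of 4 gene pairs are shown because the copies differ at few bases. In each pair the gene listed first is among the 60 and differed widely in level between the strains, and its copy is not. Each is the 60-base coding stretch, within 1 exon, in which a gene and its closest copy differ most, read from the GENCODE vM39 transcripts of GRCm39, the build of all coordinates given here. Bases that differ between the copies are in capitals. Vcp encodes an ATPase that extracts proteins for degradation, and Vcp-rs is an intronless pseudogene of it on the X chromosome (chrX:103390299-103390358, minus strand, against chr4:42983517-42983576, minus strand).
Vcp-rs: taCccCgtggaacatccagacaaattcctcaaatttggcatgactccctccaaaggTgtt
Vcp: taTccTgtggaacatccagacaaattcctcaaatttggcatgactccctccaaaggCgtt

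Isca1 encodes a protein of mitochondrial iron-sulphur cluster assembly, and AK157302 is a single-exon copy of it (chr13:21679476-21679535, plus strand, against chr13:59917459-59917518, minus strand).
AK157302: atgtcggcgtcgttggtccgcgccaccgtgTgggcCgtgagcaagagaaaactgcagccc
Isca1: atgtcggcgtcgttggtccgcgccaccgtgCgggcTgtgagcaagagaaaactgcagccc

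Trim34a and Trim34b are nearby genes of the tripartite motif family, which includes antiviral restriction factors (chr7:103978847-103978906 for Trim34b against chr7:103897030-103897089 for Trim34a, both plus strand).
Trim34b: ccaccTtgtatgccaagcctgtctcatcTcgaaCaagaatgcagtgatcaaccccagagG
Trim34a: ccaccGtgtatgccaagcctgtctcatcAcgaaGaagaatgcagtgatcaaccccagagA

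Amd1 encodes S-adenosylmethionine decarboxylase, an enzyme of polyamine synthesis, and Amd2 is a single-exon copy (chr10:35586760-35586819 against chr10:40166182-40166241, both minus strand).
Amd2: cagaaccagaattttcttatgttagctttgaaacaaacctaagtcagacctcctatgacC
Amd1: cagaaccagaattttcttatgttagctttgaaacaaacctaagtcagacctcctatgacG

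Over the coding part of their aligned transcripts, Vcp-rs and Vcp differed at 8 bases, AK157302 and Isca1 at 2, Trim34b and Trim34a at 17, and Amd2 and Amd1 at 1. Inserted or deleted positions are not in these counts. The whole alignments held 15 of them for Vcp-rs and Vcp, 4 for Amd2 and Amd1, and 0 for the AK157302 and Trim34b pairs. The pair Rnaset2a and Rnaset2b, which encode the lysosomal ribonuclease T2, had 0 differing bases in the coding part and 14 outside it, so no stretch is shown for it. Its alignment also held 8 inserted or deleted positions. Of 57 of the 60 genes that could be matched to the annotation, a median of 23.0% of the 31-base stretches also occurred in a transcript of another gene, against 1.33% over 13057 genes of the matrix. The share was over 20% for 31 of the 57 genes (54.4%), against 13.7% of all genes. It was under 5% for 12 of the 57 (21.1%), against 68.1% of all genes. The sharing was computed within the reference, and whether MRL bases that differ from it moved reads between copies was not tested.

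**Figure D1:**
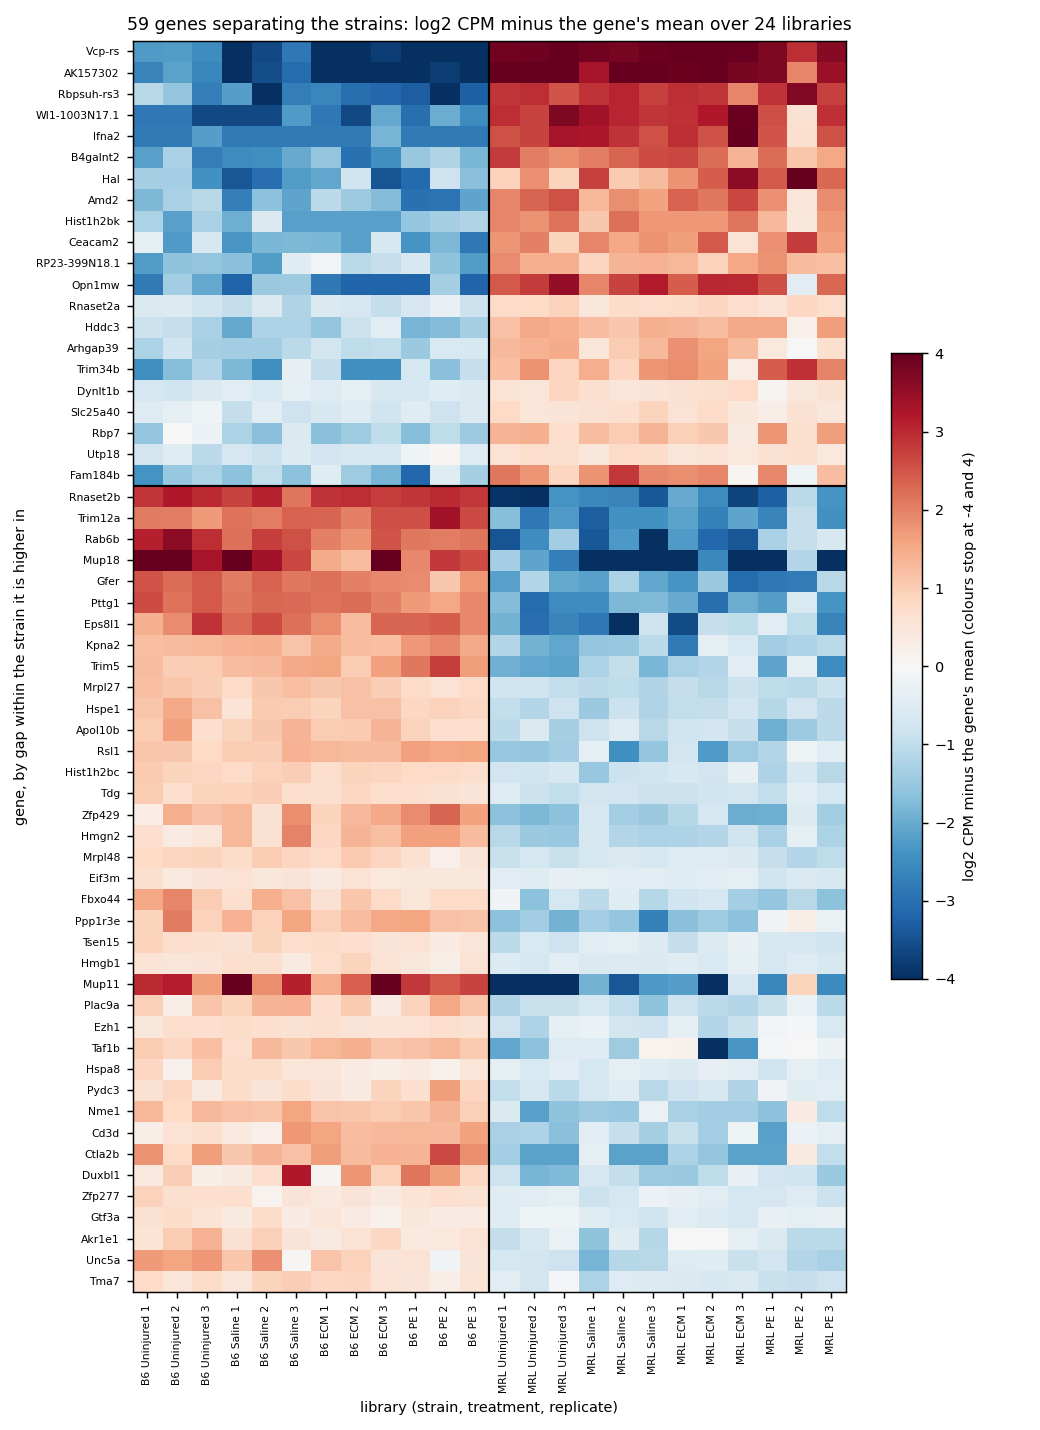
Log2 CPM of 59 of the 60 genes (rows) in the 24 libraries (columns), each minus the gene's mean over all libraries, with genes ordered by gap within the strain in which they are higher and black lines between strains and between the 21 genes drawn that are higher in MRL and the 38 higher in B6. On each side of the vertical line the colours keep their sign for nearly all libraries, and Vcp-rs, with the widest gap of 5.19, heads the rows higher in MRL.

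The plot of the genes by library shows the pattern that chose them. The mean strain difference had a median size of 2.42 on the log2 scale and ranged from 0.90 to 7.60. It exceeded 1 for 58 genes and 3 for 24. In 15 genes at least 1 library of the lower strain was at a count of 0, and in 0 genes were all 12. At the edge of the rule lay Fam184b (gap 0.31), Utp18 (0.33) and Tma7 (0.34) inside, and Sumf2 (0.26), Trim30d (0.26) and Zfp949 (0.25) outside.

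Among the 12 genes whose transcripts shared under 5% of their 31-base stretches with another gene, B4galnt2, Hal, Opn1mw, Arhgap39, Rbp7 and Fam184b were higher in MRL. B4galnt2 encodes a glycosyltransferase that adds N-acetylgalactosamine to surface sugars and lies at chr11:95754392-95805752. Its log2 CPM was -2.16 at the lowest, -1.29 at the median and -0.39 at the highest of the 12 B6 libraries, and 1.91, 2.95 and 3.62 in MRL. Its strain difference was smallest with PE (3.14) and largest with saline (4.66).

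Hal encodes histidine ammonia-lyase, the first enzyme of histidine breakdown, known mostly from liver and skin, and lies at chr10:93324629-93355166. In B6 its lowest, median and highest log2 CPM were -0.29, 1.01 and 2.39, and in MRL 4.07, 5.23 and 7.68. The highest value belonged to the PE-treated MRL library that stood apart, and all 12 MRL libraries were above all 12 of B6. Its neighbours in the matrix did not share this: Lta4h differed by -0.61 and Snrpf by 0.06 between the strains, with overlapping libraries.

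Opn1mw, a cone opsin of the retina, was near the floor in B6, with 5 of 12 libraries at a count of 0 and a highest log2 CPM of -1.78, and ran from -0.87 over a median of 2.20 to 3.07 in MRL. Rbp7, a retinol-binding protein of endothelium and fat, had a median of 0.48 in B6 and 2.98 in MRL. Arhgap39, a GTPase-activating protein, had medians of 1.53 and 3.84. Fam184b, for which no role is given here, had medians of -1.97 and 1.33 and the narrowest gap of all 60 genes.

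Rab6b, Ppp1r3e, Cd3d, Duxbl1, Akr1e1 and Unc5a were the genes of this kind higher in B6. Rab6b, a small GTPase of traffic through the Golgi apparatus described mainly in neurons, lies at chr9:102988943-103062475. Its log2 CPM ran from 3.23 over a median of 3.78 to 5.01 in B6 and from -3.65, a count of 0, over -0.96 to 0.78 in MRL. The 3 highest MRL libraries were the PE-treated ones, at 0.13, 0.50 and 0.78.

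Ppp1r3e encodes a subunit that directs protein phosphatase 1 to glycogen and lies at chr14:55110126-55115009. Its levels were 1.85, 2.17 and 3.04 (lowest, median and highest) in B6 and -1.73, -0.53 and 1.22 in MRL. Again the 3 PE-treated libraries, at 0.82, 1.22 and 0.69, were the highest of MRL. Akr1e1, an aldo-keto reductase, had medians of 3.79 in B6 and 2.59 in MRL, and it was the 1 of 32 measured carboxylesterases and other xenobiotic enzymes in the set. Unc5a, a receptor for the guidance cue netrin, had medians of 4.15 and 2.26, and Duxbl1, a homeobox gene of the Dux family, of 0.01 and -1.84.

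Cd3d encodes the delta chain of the T cell receptor complex and was the 1 of 6 measured T cell markers in the set. Its log2 CPM was 0.27, 1.32 and 1.80 (lowest, median and highest) in B6 and -2.11, -1.03 and -0.16 in MRL. The libraries of the strains overlapped for the other 5 markers, Cd3e, Cd3g, Cd4, Cd8a and Lck, and the median difference over the 6 was -1.25. A lower mean level in MRL was not particular to Cd3d, which differed by a mean of -2.02. On either side of it in the matrix, Cd3e differed by -2.45 (gap -0.27) and Cd3g by -1.17 (gap -3.96). Cd4 did not share this clearly, running from -1.77 to 2.05 in B6 and from -0.11 to 1.57 in MRL. Cd8a ran from -1.17 to 0.20 in B6 and from -2.14 to 0.22 in MRL. Lck ran from -2.18 to 1.32 in B6 and from -3.65 to 1.00 in MRL. Summed over the 6 markers, the level was 3.11 to 12.4 CPM in B6 and 1.83 to 7.04 CPM in MRL. In bulk muscle, fewer cells of a type and less RNA per cell cannot be told apart.

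**Figure D2:**
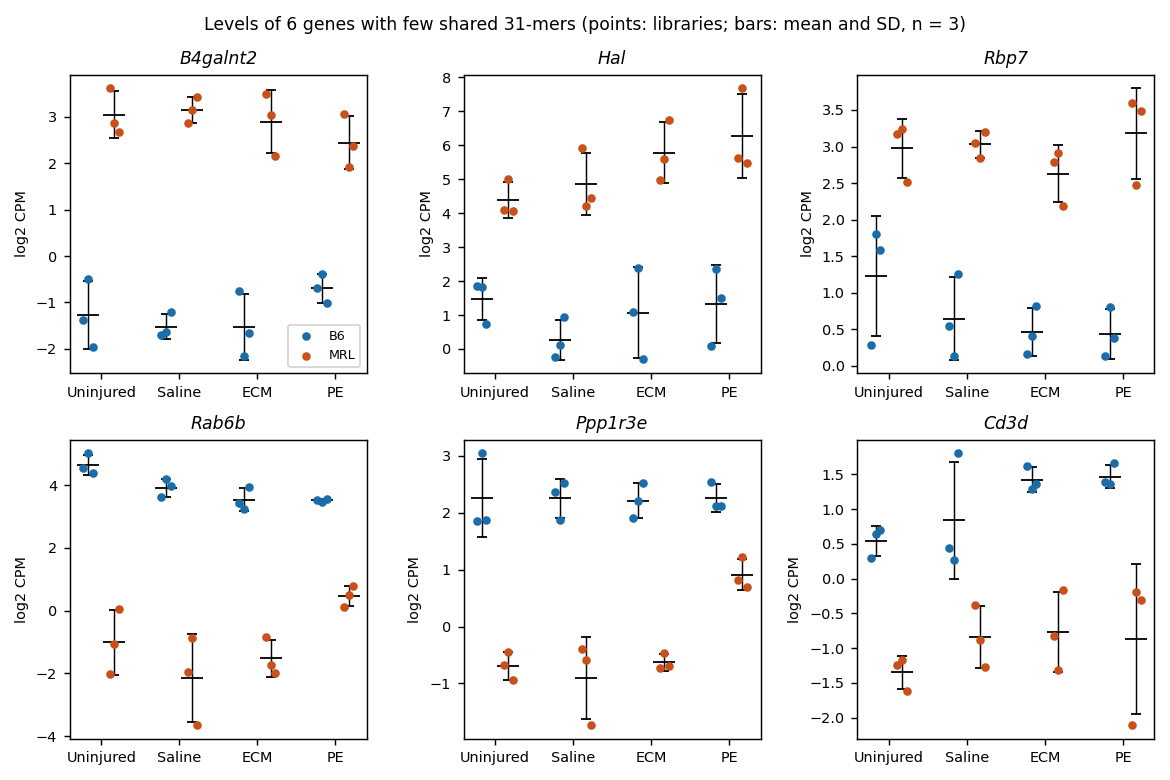
Log2 CPM of B4galnt2, Hal, Rbp7, Rab6b, Ppp1r3e and Cd3d by treatment (x axis) in B6 (blue) and MRL (orange), with 1 point per library and black bars for the mean and SD of 3 libraries. In each of the 6 genes no library of one strain reaches the other, and the PE-treated MRL libraries of Rab6b and Ppp1r3e lie above the other MRL libraries.

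Another group of genes belonged to pairs or families of near-identical copies, counted where the alignment was 90% identical or more and covered 50% or more of the shorter of both transcripts. Of the 60 genes, 34 had such a copy in the annotation and 23 had one in the matrix, 10 of them higher in MRL and 13 in B6. Copies were sought for these genes only, so no share over all genes stands beside the counts of copies given here. To see the strain difference of a gene and its copies together, their CPM values were summed in each library. Alone, the 23 genes had a median strain difference of 3.01 in size, and summed with their copies, of 0.73. A sum follows its more abundant copy, so by arithmetic alone it can shrink or reverse the difference of a scarcer one. The smaller size therefore does not show that reads moved between copies. Rnaset2a and Rnaset2b share the same sum, as do Mup11 and Mup18, and Rsl1 and Zfp429. The libraries of the strains overlapped in the summed level for 15 of the 23 and stayed apart for 8, of which 5 had a summed gap above 0.3. The summed difference had the opposite sign for 7. Among these was Hist1h2bk, at 3.34 alone and -1.16 summed, whose summed libraries stayed apart in the opposite direction.

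Vcp-rs had the widest gap of the 60 genes. Its log2 CPM was -0.61, 0.82 and 2.45 (lowest, median and highest) in B6 and 7.64, 8.56 and 8.71 in MRL, a mean difference of 7.60. Vcp itself ran from 8.74 to 9.38 in B6 and from 7.80 to 8.60 in MRL, lower by a mean of 0.83 on the log2 scale in MRL (-0.83). Summed, the pair ran from 8.75 to 9.39 in B6 and from 8.72 to 9.62 in MRL. A pseudogene was thus listed in MRL at a level near that of its parent gene, and the sum did not separate the strains.

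AK157302 showed the same arrangement with Isca1. Its levels were -2.71, -1.55 and 0.23 in B6 and 4.35, 6.34 and 6.66 in MRL. Isca1 differed by -1.58, and the summed level by -0.62, with overlapping libraries. Rbpsuh-rs3, a pseudogene of the Notch effector Rbpj, differed by 5.69 alone and by -0.25 summed with Rbpj.

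Amd2 differed by 3.83 alone and by 0.18 summed with Amd1. Ceacam2, a cell adhesion receptor, differed by 3.49 alone and by -0.56 summed with Ceacam1.

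Rnaset2a and Rnaset2b lie on chromosome 17 and separated the strains in opposite directions. Rnaset2b had levels of 4.55, 5.29 and 5.60 (lowest, median and highest) in B6 and -2.01, -0.19 and 1.33 in MRL, the widest gap among genes higher in B6 (3.23). Rnaset2a had levels of 4.93, 5.47 and 5.83 in B6 and 6.59, 6.86 and 7.07 in MRL. Their sum was 0.54 higher in MRL, with overlapping libraries. Dynlt1b, a dynein light chain gene of the same chromosome, differed by 1.12 alone and by 0.92 summed with 4 copies. Here the summed libraries of the strains stayed apart, with a gap of 0.26.

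For 8 of the 23 genes a copy passed the gap in the opposite direction. Hspa8, the constitutive heat shock protein of the HSP70 family, ran from 9.94 over 10.25 to 10.77 in B6 and from 8.97 over 9.29 to 9.44 in MRL. Its pseudogene Gm15459 ran from 1.36 to 4.02 in B6 and from 8.77 to 9.33 in MRL. Summed, the difference shrank from -1.02 to -0.12 and the libraries overlapped. Gm15459 was left out of the 60 by its symbol alone.

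Hmgb1, a DNA-bending chromatin protein, differed by -1.11 alone and by -0.60 summed with 3 pseudogenes, of which Gm15387 and Gm21596 passed the gap in the opposite direction. Tdg, a DNA glycosylase of base excision repair, differed by -1.54 alone and by -0.73 summed with Gm9855. Mrpl48, a protein of the large mitochondrial ribosomal subunit, differed by -1.52 alone and by -1.43 summed with Mrpl48-ps. In these 3 genes the summed libraries still did not overlap, with gaps of 0.04 for Hmgb1, 0.29 for Tdg and 0.60 for Mrpl48.

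The histone genes Hist1h2bc and Hist1h2bk, both on chromosome 13, separated the strains in opposite directions, by -1.68 and 3.34. Hist1h2bc was by far the more abundant, with a median log2 CPM of 5.94 in B6 and 4.32 in MRL, against -3.23 and 0.27 for Hist1h2bk.

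**Figure D3:**
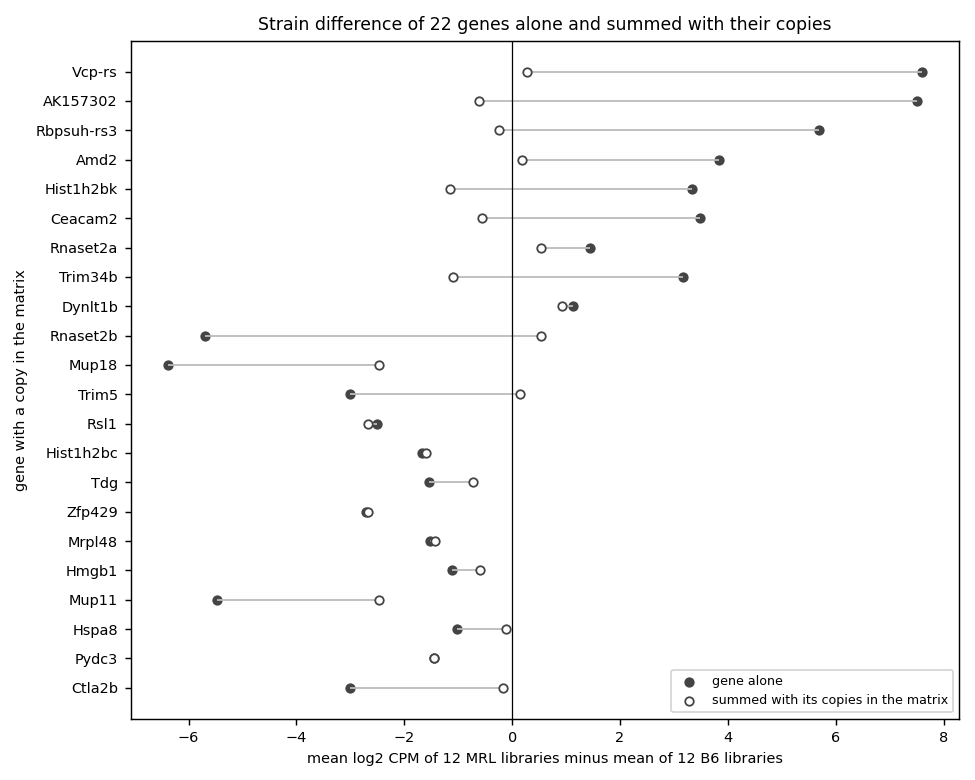
Mean log2 CPM of the 12 MRL libraries minus the mean of the 12 B6 libraries (x axis) for 22 of the 23 genes with a near-identical copy in the matrix, alone (filled) and summed with the copies (open). The open points lie nearer to 0 than the filled ones for most genes, with a median size over the 23 of 0.73 against 3.01, and genes such as Rsl1, Zfp429 and Pydc3 hardly move. Each sum follows its more abundant copy.

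Several of the 60 genes lay close together. On chromosome 7 Trim5, Trim12a and Trim34b started within 66.1 kb and were the 3 measured genes of that stretch. Trim12a ran from 2.96 over 3.51 to 4.61 in B6 and from -2.02 over -1.15 to 0.35 in MRL. Trim5 ran from 0.86 over 1.28 to 2.64 in B6 and from -2.63 over -1.69 to -0.53 in MRL. Trim34b went the other way, with medians of -2.90 in B6 and 0.47 in MRL.

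Genes on either side of these did not separate the strains by the rule. Trim34a, at -18.9 kb from Trim5, differed by -1.95 with overlapping libraries (gap -0.05). Trim12c, 75.4 kb after it, differed by 0.39, and Trim30d, 206.6 kb after it, by -3.58 with a gap of 0.26. Summed with Trim12c, Trim5 differed by 0.14, and summed with Trim34a, Trim34b differed by -1.10. Trim12a had no copy by this definition. On a list of restriction factors against retroviruses, of which 14 were measured, Trim12a and Trim34b were in the set.

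**Figure D4:**
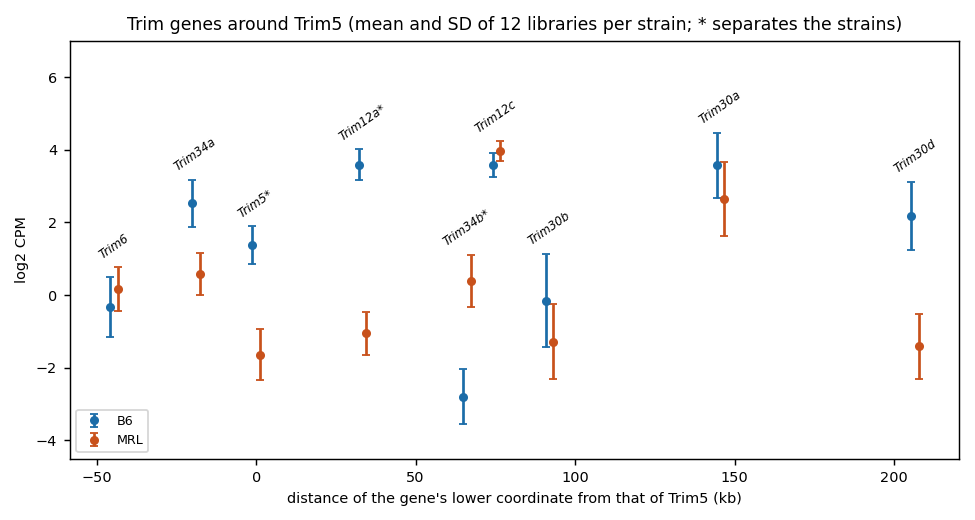
Mean log2 CPM of 9 Trim genes of chromosome 7 in B6 (blue) and MRL (orange), with SD over 12 libraries as bars, against the distance of each gene's lower coordinate from that of Trim5 in kb; stars mark the genes that separate the strains. Trim5 and Trim12a are higher in B6 and Trim34b in MRL, while Trim12c, 75.4 kb away, differs by 0.39.

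Mup11 and Mup18, 2 of the major urinary protein genes on chromosome 4, which carry pheromones and are made mainly in liver, were measured in B6 muscle and mostly at or near a count of 0 in MRL. Mup18 ran from 1.62 over 3.46 to 5.18 in B6, and 7 of the 12 MRL libraries were at a count of 0, with a highest level of -0.79. Mup11 had medians of 3.72 in B6 and -1.61 in MRL. Each had 10 copies in the matrix, and the summed level differed by -2.47 with overlapping libraries. One of these copies, Mup9, was higher in MRL by a mean of 3.47.

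Rsl1 and Zfp429, on chromosome 13 and 93.6% identical to each other over their aligned part, encode zinc finger proteins, and Rsl1 is known as a repressor of male-biased liver genes. Both were higher in B6, Rsl1 with medians of 1.65 and -1.02 and Zfp429 with medians of 1.00 and -1.83. Summed, they differed by -2.67 and the libraries did not overlap.

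On chromosome 11 Utp18, Nme1 and Mrpl27 lay among 19 measured genes of a stretch that spanned 794.7 kb, in which these 3 were the genes past the gap. Utp18, of ribosomal RNA processing, was higher in MRL by 1.16, Nme1, a nucleoside diphosphate kinase, was lower by a mean difference of -2.34, and Mrpl27, of the mitochondrial ribosome, of -1.95. Nme2, which neighbours Nme1, differed by -0.08. The genes beside Mrpl27, Lrrc59 and Xylt2, differed by 0.11 and -0.16. Arhgap39 and Apol10b on chromosome 15 also started within 1 Mb of each other, in a stretch of 11 measured genes, and went in opposite directions.

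By what their products or those of a parent gene do, 48 of the 60 genes could be placed in 5 groups. The grouping was made after their values were seen. It includes copies such as the pseudogene Vcp-rs and the single-exon AK157302, which stand there for the roles of Vcp and Isca1. The counts by strain thus hold copies as well. Chromatin, DNA repair and transcription held 14 genes, 11 of them higher in B6. Beside those named above these included Hmgn2, a nucleosome-binding protein (medians 5.61 in B6 and 3.16 in MRL), Ezh1, a histone H3 methyltransferase of Polycomb complexes known from non-dividing cells (5.27 and 3.96), and Taf1b, of the RNA polymerase I machinery (2.74 and 1.08). Gtf3a, the factor for 5S ribosomal RNA genes, had the smallest strain difference of the 60 genes (-0.90). Hmgn2, Taf1b and Gtf3a had annotated copies only outside the matrix, so no sum with copies could be taken. They shared 33.3%, 5.9% and 57.4% of their 31-base stretches with another gene.

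RNA processing, translation and protein folding held 10 genes, 8 of them higher in B6. Hspe1, the partner of the mitochondrial chaperonin Hspd1, ran from 5.20 over 5.69 to 6.17 in B6 and from 3.17 over 3.67 to 3.90 in MRL. Hspd1, which lies beside it, differed by -0.06. Eif3m, a subunit of a translation initiation factor, had medians of 5.82 and 4.90, Tma7, a translation-associated protein, of 5.59 and 4.33, and Tsen15, of the tRNA splicing endonuclease, of 3.68 and 2.41. Hspe1, Eif3m and Tsen15 also had annotated copies only outside the matrix. They shared 41.5%, 34.9% and 26.2% of their 31-base stretches with another gene.

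Metabolism and mitochondria held 10 genes, 6 of them higher in MRL. Gfer, a sulfhydryl oxidase of the mitochondrial intermembrane space, ran from 2.92 over 3.94 to 4.36 in B6 and from -1.23 over -0.29 to 0.73 in MRL. Slc25a40, a carrier of the inner mitochondrial membrane, had medians of 2.13 in B6 and 3.28 in MRL.

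Traffic, cytoskeleton and cell division held 7 genes, 5 of them higher in B6. Pttg1, the securin that guards sister chromatid separation, ran from 4.41 over 5.05 to 5.47 in B6 and from -0.20 over 0.77 to 2.27 in MRL. Slu7, 6332 bases from it, differed by 0.11. Kpna2, an importin of nuclear transport, had medians of 3.71 and 1.03, and Eps8l1, a regulator of actin, of 3.16 and -1.33. Kpna2 had 12 annotated copies, all outside the matrix, and shared 55.4% of its 31-base stretches with another gene.

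The immune and antiviral group held 7 genes, 4 of them higher in B6. Ifna2, a type I interferon, was at a count of 0 in 10 of 12 B6 libraries and ran from -0.16 over 1.82 to 3.18 in MRL. Of its neighbours in the matrix, Mrpl48-ps was also higher in MRL, by 3.85 with a gap of 2.49, and Klhl9 differed by -0.03. Ifna2 had 1 annotated copy, outside the matrix, and shared 20.6% of its 31-base stretches with another gene. Pydc3, of the interferon-inducible PYHIN family, had medians of 0.54 in B6 and -0.83 in MRL, and summed with Gm4955 and Pydc4 the libraries of the strains overlapped.

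The treatments were compared within each strain with limma, with Benjamini-Hochberg adjustment over all 14159 genes. The rule did not use the treatment labels, but it took the lowest and highest library of a strain over all 4 treatments, so it bounds how far a treatment can move a gene towards the other strain, and these tests are not independent of how the genes were chosen. The 60 genes had a median range across the libraries of a strain of 1.38 in B6 and 1.66 in MRL, against 1.52 and 1.59 over all genes. Injury alone called 0 of the 60 in either strain (saline minus uninjured, 0% of all genes called in each direction), with 6 in B6 (10%, against 12.4% of all genes) and 4 in MRL (6.67% against 3.10%) at an unadjusted p under 0.05. Without saline replicate 2 of B6, Hmgn2 was called there, at 1.17 (SE 0.28, adjusted p = 0.0298). The study, which worked from counts, reports genes changed by this injury in B6 at an adjusted p under 0.05, such as Acsm3, which fell. The 0% of all genes called by the fit used here therefore does not show that injury changed no gene.

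ECM minus saline also called 0 of the 60 in both strains, with 1 in B6 (1.67%, against 3.99% of all genes) and 6 in MRL (10% against 3.55%) at an unadjusted p under 0.05. The share of all genes called was 0.0283% higher and 0% lower in B6, and 0.00706% higher and 0% lower in MRL. PE minus saline in B6 called 2 of the 60 as lower (0.6% of all genes) and 0 as higher (5.37% of all genes), with 4 at an unadjusted p under 0.05 (6.67%, against 25.2% of all genes). In MRL it called 0 (0% of all genes in each direction), with 7 at an unadjusted p under 0.05 (11.7% against 23.3%).

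Vcp-rs was one of the 2 genes that fell with PE in B6. Its log2 CPM was 0.72, 1.08 and 1.83 with saline and -0.61, 0.57 and -0.26 with PE, without overlap. The difference was -1.31 (SE 0.33, n = 3 per group, limma adjusted p = 0.0292), and on a log2(CPM + 1) scale -0.80 (adjusted p = 0.0405). In MRL its levels were 8.53, 8.47 and 8.61 with saline and 8.41, 7.64 and 8.33 with PE.

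Mrpl48 was the other. Its log2 CPM was 5.68, 5.97 and 5.83 with saline and 5.56, 5.14 and 5.46 with PE, again without overlap. The difference was -0.44 (SE 0.13, limma adjusted p = 0.0464). In MRL it was -0.37 (SE 0.13, adjusted p = 0.125), with levels of 4.24, 4.39 and 4.27 against 4.05, 3.79 and 3.95. Both calls were lost when B6 saline and PE libraries were fitted without the other groups (adjusted p = 0.173 for Vcp-rs and 0.247 for Mrpl48). Leaving out PE replicate 1 or 2 or saline replicate 2 or 3 of B6 ended both calls (adjusted p of 0.0790 to 0.121 for Vcp-rs and 0.0675 to 0.353 for Mrpl48), and leaving out saline replicate 1 ended that of Mrpl48 (0.0590).

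The smallest p-values among the 60 genes in MRL belonged to Ppp1r3e and Rab6b, both higher in B6. Ppp1r3e differed by 1.82 between PE and saline (SE 0.36, limma adjusted p = 0.0850) and Rab6b by 2.63 (SE 0.54, adjusted p = 0.0850). Neither passed the threshold with all libraries, and on a log2(CPM + 1) scale the differences were 0.92 and 0.95 (adjusted p = 0.0947 and 0.0917). Leaving out saline replicate 1 of MRL brought both past it (adjusted p = 0.0307 for Ppp1r3e and 0.0343 for Rab6b). Leaving out saline replicate 2 brought Rab6b past it (0.0407) but not Ppp1r3e (0.395), and leaving out PE replicate 3 Ppp1r3e (0.0486). Leaving out saline replicate 3 shrank the differences to 1.41 for Ppp1r3e and 1.88 for Rab6b (adjusted p = 0.350 for both). Without PE replicate 2 the adjusted p was 0.165 for Ppp1r3e and 0.163 for Rab6b. With MRL saline and PE libraries fitted without the other groups it was 0.429 and 0.461.

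Whether treatment changed the size of a strain difference was tested as the MRL treatment difference minus that of B6. This called 0 of the 60 genes in each of 3 comparisons, and 0% of all genes in each direction. At an unadjusted p under 0.05 were 1 gene for injury (1.67%, against 4.03% of all genes), 3 for ECM (5% against 2.26%) and 8 for PE (13.3% against 4.34%). The lowest was Rab6b with PE, at 3.03 (SE 0.76, limma adjusted p = 0.988), its strain difference being -6.08 with saline and -3.05 with PE. Without the PE-treated MRL library of replicate 2, which stood apart, Rab6b was called (3.01, SE 0.82, adjusted p = 0.0425). The median size of the strain difference over the 60 genes was 2.50 uninjured, 2.44 with saline, 2.41 with ECM and 2.53 with PE.

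**Figure D5:**
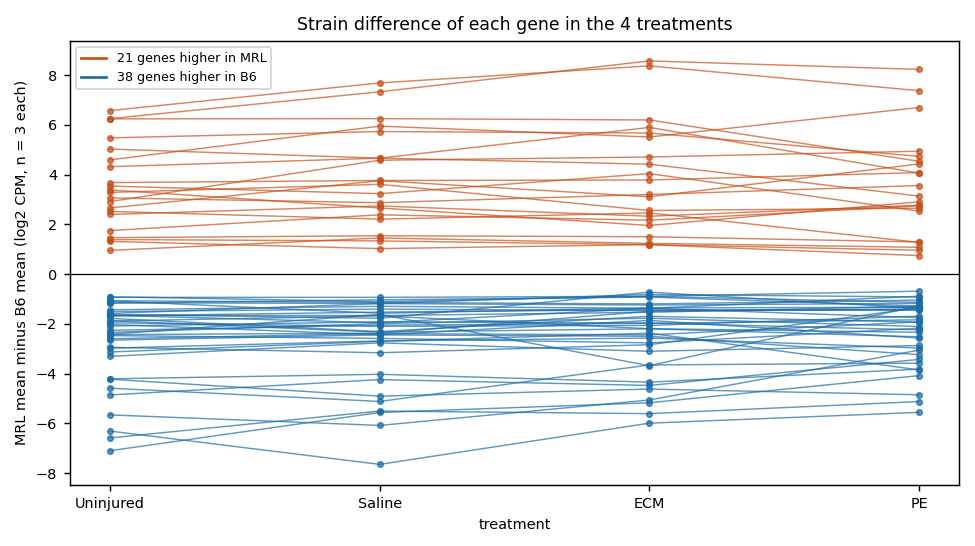
MRL mean minus B6 mean in log2 CPM (y axis, 3 libraries each) of 59 of the 60 genes in the 4 treatments (x axis), orange for the 21 genes drawn that are higher in MRL and blue for the 38 higher in B6. No line crosses 0, as the rule requires, and the median size over the 60 genes stays between 2.41 and 2.53.

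Of the lists compiled for cell types and pathways, Cd3d, Akr1e1, Trim12a and Trim34b were in the set. Before symbols were left out, the rule was met by 0.544% of all genes in one direction and 0.48% in the other. The lists are short, so a count of 0 in a list is close to that share and says little about a cell type. Besides Cd3d, 0 genes of the macrophage, neutrophil, mast cell, adipocyte, endothelial, fibroblast, Schwann cell and red blood cell lists separated the strains by the rule. Outside the set, Gstp2 of the glutathione S-transferases, Serpina1b of the serpins and Trim30d of the restriction factors had strains that did not overlap but a gap under 0.3. The other pathway lists held 0 such genes.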

How the data were processed

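RNA of mouse quadriceps was sequenced at Azenta GeneWiz for the authors from poly(A)-selected libraries, 3 per group. The authors quantified transcripts with kallisto against Ensembl mouse cDNA, summed them to genes with tximport, kept genes above 1 CPM in at least 3 libraries and deposited TMM-normalized log2 CPM from edgeR with a prior count of 2, so that -3.65 marks a count of 0. Per the labels the build was GRCm39. Reads per library are not in the matrix, and the floor gives a mean effective depth of 25149700 reads, at which 3 counts are 0.119 CPM. Of 14160 rows, 1 without a symbol was left out.

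Members and lists were chosen with earlier results of these data known. Named genes were those with the widest gaps, in lists, called by a test, at the edge of the rule, in runs within 1 Mb, or with copies in the matrix, and others were named after their values were seen. One member is counted but not reported here by name. The strain of the mice cannot be told apart from anything handled by strain. Symbols were matched to GENCODE vM39, by current symbol for 52 members and older symbol for 5, and 3 had no match. Copies were found with BLAST 2.17.0 and shared 31-base stretches by exact matching. Treatments were tested by limma 3.58.1 (R 4.3.3), 2-sided and with a variance trend, in a fit of the 8 group means to the log2 CPM of the 24 libraries. The threshold for a call was an adjusted p of 0.05. The authors' code used voom on counts, which the deposited values replace here. The fit was tested on simulated data. Same-numbered libraries did not deviate together in every pair of any comparison, with the lowest residual correlation of each comparison between -0.30 and -0.04, so no pairing was used. Alternatives were another scale, a filter on low values, other normalizations, other gaps, library weights, a replicate block, fits of the compared groups alone and leaving out single libraries. Tables were handled in Python 3.11.15 with pandas 2.3.3 and drawn with matplotlib 3.10.9.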

Additional observations from a re-analysis of the deposited data

How the results depend on the processing

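The number of genes that separated the strains followed the rule: a gap above 0 gave 35 genes higher in MRL and 66 in B6, a gap above 1 gave 10 and 13, and a mean log2 CPM of at least 1 left 12 higher in MRL. Leaving out 1 library gave 22 to 36 genes higher in MRL and 38 to 50 higher in B6, the highest MRL count without PE replicate 2 of MRL. Quantile normalization kept 47 of the 60 genes, equal totals 45 and a log2(CPM + 1) scale 52, and on that scale the strain difference of 31 of the 60 moved by more than 1 SD of the libraries. No sign changed under quantile normalization or equal totals, and the rule fixes the signs on log2(CPM + 1) and without any 1 library. Of the 60 genes, PE minus saline called 0 to 3 in B6 and 0 to 3 in MRL with 1 library left out, B6 saline minus uninjured 0 to 1, the interaction for PE 0 to 1 and the other comparisons 0. The B6 PE comparison called 0 with the compared groups alone and 1 with a replicate block, under which Mrpl48 was lost (-0.44, adjusted p = 0.0608); the block moved no other count.

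Library weights are not a usable check here. The planned estimate (REML, limma) stopped before convergence and gave weights of 0.06 to 56.3, so that PE-treated B6 replicate 1 nearly stood for its group of 3. Its counts are printed for completeness and support nothing: 14 genes for B6 saline minus uninjured, 8 for B6 ECM, 34 for B6 PE and 7 for MRL PE minus saline, and 3, 1 and 12 for the interactions of injury, ECM and PE, with 9640 of all genes called for B6 PE. A gene-by-gene estimate, chosen after seeing the data, gave weights of 0.09 to 5.93 and called 6 for B6 saline minus uninjured, 4 for B6 PE, 5 for MRL PE and 6 for the PE interaction, among them Rab6b and Ppp1r3e in both of the last. The calls thus depend on how much single libraries count, and 3 libraries per group limit every comparison.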
